A study of Homo sapiens with 14 samples.

Results

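The data described here are 2318 single cytosines that were read as edited to uracil in at least 2 of the 3 RBFOX2 libraries made from 1 ng of RNA, and in none of the 4 control libraries of that input. They were chosen by the calls themselves, so their presence in RBFOX2 libraries and absence from controls is the selection and not a result. They are 1.09% of the 213063 positions called in any 1 ng library. All libraries came from HEK293T cells fixed in methanol. This immortalized line derives from human embryonic kidney, and the labels also write it as HEK293XT. In the RBFOX2 libraries the fixed cells received a rabbit antibody against RBFOX2 and then APO1-Nb, a fusion of the cytidine deaminase APOBEC1 with a nanobody against rabbit IgG. The Enzyme-only library received APO1-Nb without the antibody, and the Buffer-only libraries received neither. Both inputs, 1 ng and 100 pg, had 3 RBFOX2, 1 Enzyme-only and 3 Buffer-only libraries. The study calls its replicates technical, so the p-values measure the technical spread between these libraries only. No source used here says whether the low-input kit preserved RNA strand.

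RBFOX2 belongs to the RBFOX family of RNA-binding proteins, which recognise UGCAUG in RNA and are best known for controlling alternative splicing from intronic sites. RBFOX2 is mostly nuclear, and it also binds in 3′UTRs. APOBEC1 is the enzyme that edits APOB mRNA in the gut, and it favours cytosines that follow an A or a U. In this assay the enzyme is held by the antibody, so an edit can fall beside the bound motif instead of on it.

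Copies of UGCAUG with several repeated positions beside them are shown first, because the edits and the motif can be read in 1 line. Each line is 30 nt of the hg38 reference, written as RNA in the direction of the transcript. Capitals mark UGCAUG and every C that is a repeated position. For each gene the copy with the most repeated positions in reach was taken, and genes with the most in 30 nt were kept, with ties broken by the number in all 3 libraries and then by edited reads.
ATP13A3, chr3:194403051-194403080, minus strand: uauuCaUGCAUGcaauuuugaCauauCuaa
CARNMT1, chr9:74981807-74981836, minus strand: aaUGCAUGcuguuuuuCaauggCuuagaCa
MTHFD2, chr2:74213893-74213922, plus strand: aCaaCucuguaugUGCAUGuuauuuuaCua
MATR3, chr5:139330300-139330329, plus strand: UGCAUGuauaauuuguguuuaCuuguaaCu
ATE1, chr10:121740509-121740538, minus strand: aCuauaaggcaaaagaaguuugaCUGCAUG
SERF1B, chr5:70032567-70032596, plus strand: aauaaaaCaCuaaccaUGCAUGugacauau
CDH2, chr18:27951341-27951370, minus strand: gauuCagguuuuuUGCAUGuuuauauCuuu
SERBP1, chr1:67410028-67410057, minus strand: gUGCAUGcaauuuuacuuuCuaaaguaaaC
BRD3, chr9:134030528-134030557, minus strand: ugaugUGCAUGcaaguuuaCcguaaCuuuu
ZNF503, chr10:75398152-75398181, minus strand: aaauuuaCaUGCAUGuuuguuaCaaaaaaa
ENAH, chr1:225496731-225496760, minus strand: ucuuuuuCucaguuaCcUGCAUGaauaaau

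The MTHFD2 window lies in an intron and the other 10 lie in 3′UTRs. ATP13A3, CARNMT1 and MTHFD2 had 3 repeated positions each in the 30 nt shown, and the other genes had 2. The ATP13A3 window held 17 edited reads in a summed coverage of 262, and the MATR3 window held 26 in 1174. SERF1B has a near-identical gene copy, so its reads may come from that copy. The C inside UGCAUG, which follows a G, was not a repeated position at any copy (0 of 2318). Among positions called in a single RBFOX2 library it was 107 of 112446 (0.0952%), and among Enzyme-only sites 37 of 38007 (0.0974%). At shares this low few are expected among 2318 positions, so the 0 does not set them apart.

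Repeated positions lay near UGCAUG more often than the other sets of positions did. The motif centre lay within 50 nt on the same strand for 373 of 2318 positions, which is 16.1% (95% Wilson interval 14.7 to 17.6%). Positions in all 3 libraries had it in 30.4% of 138 cases and those in exactly 2 libraries in 15.2% of 2180. Just outside the rule, the share was 4.91% of the 112446 RBFOX2-only positions of a single library and 4.27% of the 445 repeated positions that exactly 1 control also called. The control libraries give other values for the motif, from sets not matched in depth or region. The motif was within 50 nt of 2.79% of the 38007 Enzyme-only sites, of which 30.6% were in 3′UTRs, against 68.8% of repeated positions. Of 171 positions in at least 2 RBFOX2 libraries, in Enzyme-only and in no Buffer-only library, 7.02% were near it. Within 3′UTRs this was 9 of 78 (11.5%, 95% Wilson interval 6.19 to 20.5%), against 16.9% of the repeated RBFOX2-only positions. The interval holds the 16.9%, so these 2 sets are not told apart within 3′UTRs. The rule turned round, at least 2 of 3 Buffer-only libraries and no RBFOX2 or Enzyme-only library, gave 413 positions, of which 3.15% were near the motif.

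Within each RBFOX2 library the repeated positions were set against all its other sites. Near UGCAUG were 16.8%, 15.7% and 17% of the repeated positions in replicates 1, 2 and 3, against 4.80%, 4.65% and 4.96% of the other sites. The mean was 16.5% ± 0.685 for repeated positions and 4.80% ± 0.155 for other sites (SD, n = 3 libraries), a difference of 11.7 percentage points. The difference had the same sign in 3 of 3 libraries, with p = 0.25 in an exact two-sided sign-flip test, the smallest p that 3 pairs allow. The 3 libraries share repeated positions by construction, so their shares are not independent of each other. With a window of 25 nt the difference was 7.44 points.

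**Figure D1:**
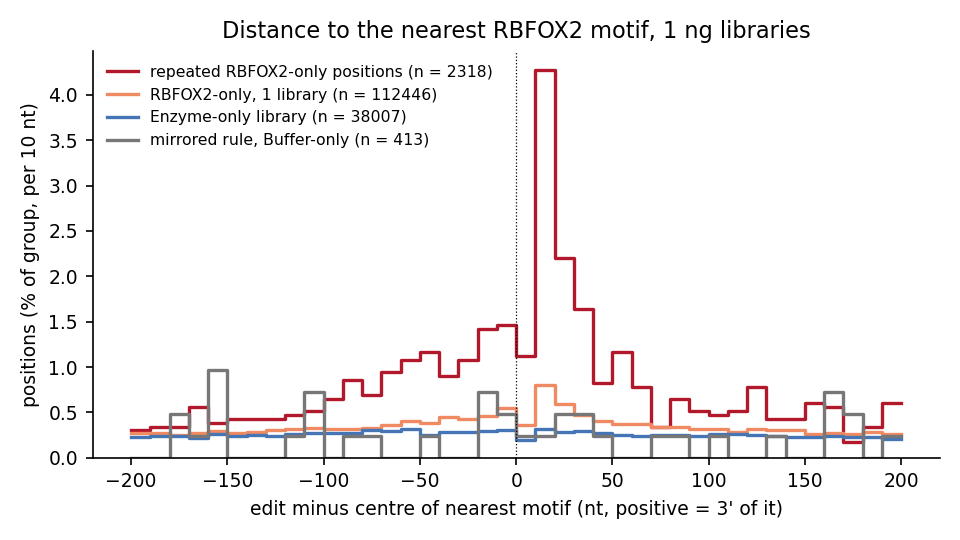
Distance from each edit to the centre of the nearest RBFOX2 motif on the same strand, in nt, in bins of 10 nt, as a percentage of each group of positions. Repeated RBFOX2-only positions peak 10 to 20 nt 3′ of the motif, at 4.27% of positions, above the other groups.

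The edits lay unevenly around the motif. Of the 373 repeated positions within 50 nt, 233 were 3′ of the motif centre and 140 were 5′ of it. The bin from 10 to 20 nt on the 3′ side held 99 positions, against 33 in the matching bin on the 5′ side. The innermost 10 nt held 26 positions on the 3′ side and 34 on the 5′ side. RBFOX2-only positions of a single library had the same bin as their fullest, with 905 of 112446 positions (0.805%). In the Enzyme-only library the sides were nearly equal, with 522 sites 3′ and 540 sites 5′ of the motif within 50 nt. Its fullest bin was also the one from 10 to 20 nt on the 3′ side. That bin held 121 of 38007 sites (0.318%), against 112 in the matching bin on the 5′ side. These counts are a description with no test.

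Most motif copies had a single repeated position beside them. The 373 near positions used 289 copies of UGCAUG: 231 copies had 1 repeated position, 41 had 2, and 17 had from 3 to 6. Among all 2318 positions, 410 lay within 50 nt of another on the same strand and 156 within 10 nt. Neighbouring edits can be on the same reads, so they are not independent observations.

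The base before the edited C was A or U for 2145 of the 2318 positions (92.5%), which is the preference APOBEC1 is known for. By library the share was 92.8%, 92.5% and 92.9% of repeated positions in replicates 1, 2 and 3, against 70.7%, 71.3% and 71.2% of the other sites. The means were 92.7% ± 0.223 and 71.1% ± 0.336 (SD, n = 3 libraries), with the same sign in 3 of 3 libraries and p = 0.25 in the exact sign-flip test. ACU was the commonest triplet at 34.3% of repeated positions, against 15.1% of RBFOX2-only positions of a single library and 4.36% of the mirrored Buffer-only positions. The base itself also differed between the sets, which is given with no test. A preceded 59.9% of repeated positions and 10.4% of the mirrored ones, and U preceded 32.7% and 50.6%. Of the 138 positions in all 3 libraries, 98.6% followed A or U and 52.2% were ACU.

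Most repeated positions were in 3′UTRs. By Gencode 44, 1594 positions (68.8%) were in a 3′UTR, 193 (8.33%) in an intron, 153 (6.60%) in coding sequence, 104 (4.49%) in a noncoding exon and 27 (1.16%) in a 5′UTR. The remaining 247 (10.7%) had no gene on their own strand, and 186 of them lay opposite a gene. In the libraries 69.7%, 67.6% and 69.7% of repeated positions were in 3′UTRs, against 37.4%, 36.7% and 37.1% of the other sites. The means were 69.0% ± 1.23 and 37.1% ± 0.380 (SD, n = 3 libraries), with the same sign in 3 of 3 libraries and p = 0.25 in the exact sign-flip test. Coverage moves with this result. The median coverage of a repeated position in a library was 41 to 45 reads, against 19 to 20 at the other sites, and with at least 20 reads asked of every site the difference was 27.8 points, against 32.0.

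**Figure D2:**
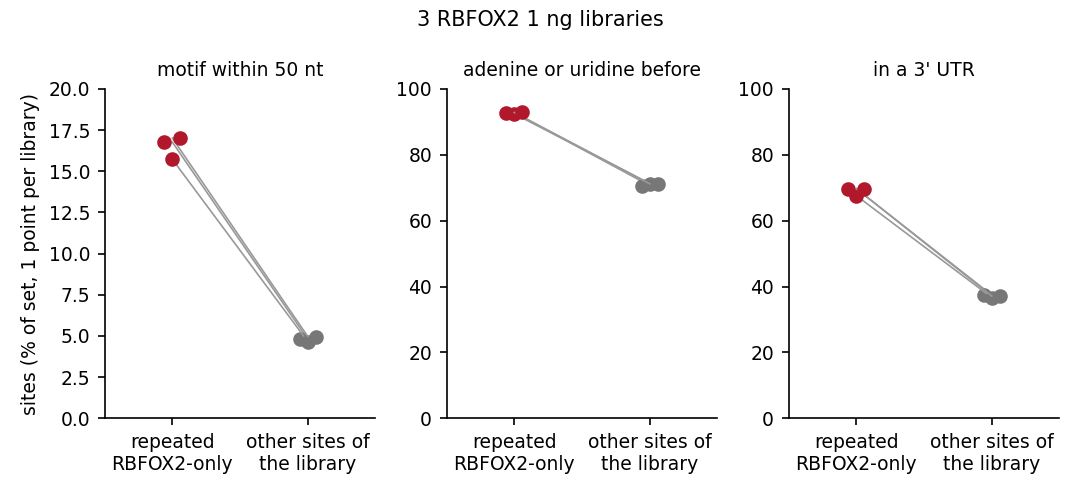
Percentage of sites with the RBFOX2 motif within 50 nt, with adenine or uridine before the edit, and in a 3′UTR, for repeated RBFOX2-only positions (left, red) and the other sites of the same library (right, grey). Each of the 3 lines in a panel is 1 RBFOX2 library of 1 ng, and repeated positions are higher in every line, for example 16.8% against 4.80% near the motif in replicate 1.

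The motif was also near intronic edits. UGCAUG was within 50 nt of 57 of the 193 intronic positions (29.5%), 270 of the 1594 in 3′UTRs (16.9%) and 12 of the 153 in coding sequence (7.84%). Among RBFOX2-only positions of a single library the shares were 6.87% in introns, 5.77% in 3′UTRs and 3.00% in coding sequence. Among positions with no gene on their strand the motif was near 3.64%, against 2.81% of such positions from a single library. The share near the motif was higher among repeated positions in each of the 3 annotated regions. Within 3′UTRs the median distance to the closest annotated transcript end was 438.5 nt for repeated positions and 565 nt for positions of a single library.

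Edit fractions were low. The pooled edit fraction, edited reads over all reads in the libraries that called a position, had a median of 3.99% with quartiles of 2.53% and 7.89% and a range from 1.1% to 70.5%. The median position rested on 4 edited reads of 86 in all. Positions in 3 libraries had a median of 3.67% on 7.5 edited reads of 171, and those in 2 libraries 4.0% on 4 of 83. The measured fraction is tied to depth: its median was 11.6% for 689 positions with up to 50 pooled reads and 2.02% for 430 with more than 200. In the single libraries 41.1%, 44.9% and 39.3% of the repeated positions rested on 1 edited read, against 57.9%, 59.7% and 56.9% of the other sites.

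**Figure D3:**
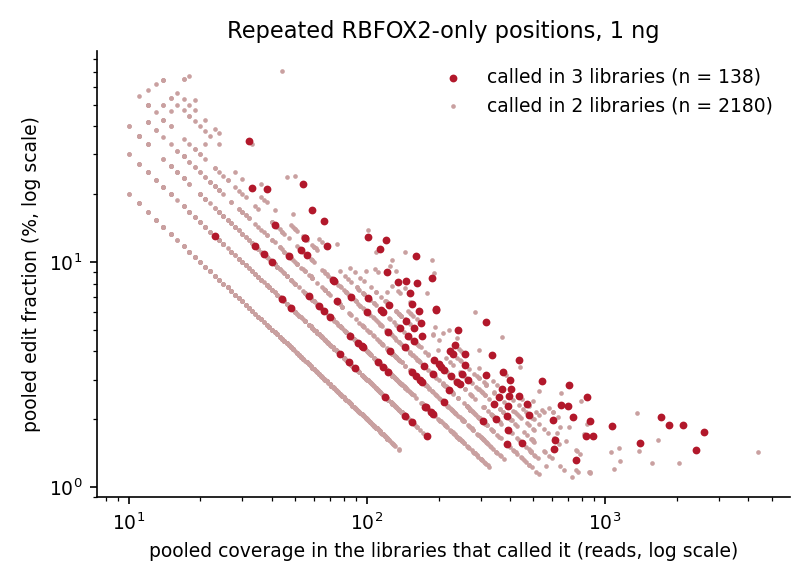
Pooled edit fraction in % against pooled coverage in reads, both on log scales, for each repeated RBFOX2-only position at 1 ng. Dark points are the 138 positions in 3 libraries and pale points the 2180 in 2 libraries, and low fractions are seen only where coverage is high, along lines that each stand for 1 number of edited reads.

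The median fraction was 3.96% after A or U and 4.04% after C or G. It was 5.38% near UGCAUG on 79 pooled reads and 3.82% elsewhere on 88. It was 6.21% for the 60 positions up to 10 nt from the motif, 4.95% from 25 to 50 nt and 3.55% from 50 to 100 nt. Median pooled coverage in those 3 bins was 68.5, 90 and 101.5 reads, so depth moves with the fraction here too. Introns had 10% on 31 reads and 3′UTRs 3.63% on 99 reads. These values come from the reads that chose the positions and carry no test.

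Absence from a control can mean no edit or too few reads, because the files list only called sites. A control library showed at least 20 reads at a called site within 50 nt, or as the mean depth of a cluster over the position, for 506 of the 2318 positions (21.8%). Of these 506, 14.8% were near UGCAUG, against 16.4% of the other 1812. Any reads of a control were shown for 545 positions (23.5%), and for the rest the depth of the controls is unknown. Positions also recur without enzyme. Before any other group was taken out, 2053 positions were in at least 2 Buffer-only libraries and 4036 in at least 2 RBFOX2 libraries. The mirrored Buffer-only rule gave 413 positions from libraries of 20330 to 22543 sites, where the RBFOX2 libraries had 40162 to 42589. The rule and its mirror remove unlike sets of positions, so 413 and 2318 are not matched counts. The number of repeated positions rests on all 3 RBFOX2 libraries. Without replicate 1, 2 or 3 the positions in both others numbered 828, 879 and 887.

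The 100 pg libraries were not used by the rule and give a separate reading. The methods draw either input out of each sample, so libraries of both inputs may share their RNA and treated cells. RBFOX2 libraries of 100 pg called more of the repeated positions than controls. Replicates 1, 2 and 3 of RBFOX2 called 136, 130 and 133 of the 2318 positions (5.87%, 5.61% and 5.74%). The Enzyme-only library called 54 (2.33%), and the Buffer-only libraries called 44, 39 and 25 (1.90%, 1.68% and 1.08%). No RBFOX2 library overlapped with a control library. The mean was 5.74% ± 0.129 in RBFOX2 and 1.55% ± 0.425 in Buffer-only (SD, n = 3 each), with p = 0.1 in an exact two-sided permutation test, the smallest p that 3 against 3 allows.

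Any of the 3 RBFOX2 libraries of 100 pg called 343 repeated positions (14.8%), where 2.81% of all 1 ng positions were called. Any of the 3 Buffer-only libraries called 93 (4.01%), where 1.74% of all 1 ng positions were called. In an RBFOX2 library and no control of 100 pg were 297 (12.8%), against 2.55% of all positions of the 1 ng RBFOX2 libraries. Repeated positions were covered more deeply than other sites, and the part of depth in these shares was not tested. For the mirrored Buffer-only positions the 100 pg RBFOX2 and Buffer-only libraries were close: 8.56% ± 1.46 in RBFOX2 and 7.02% ± 1.35 in Buffer-only (SD, n = 3 each, exact permutation p = 0.3).

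As a share of the sites a 100 pg library called, repeated positions were 0.512%, 0.474% and 0.487% in RBFOX2 replicates 1, 2 and 3. They were 0.217% in Enzyme-only and 0.208%, 0.188% and 0.134% in the Buffer-only libraries. The means were 0.491% ± 0.0195 and 0.177% ± 0.0383 (SD, n = 3 each, exact permutation p = 0.1). The order of the groups was thus the same per called site. Without 1 of the 1 ng RBFOX2 libraries the difference in this share was 0.134, 0.141 and 0.174 points in place of 0.314, since fewer positions remain. The sites of the RBFOX2 libraries of 100 pg numbered 26554 to 27437, those of Enzyme-only 24829 and those of Buffer-only 18650 to 21140.

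**Figure D4:**
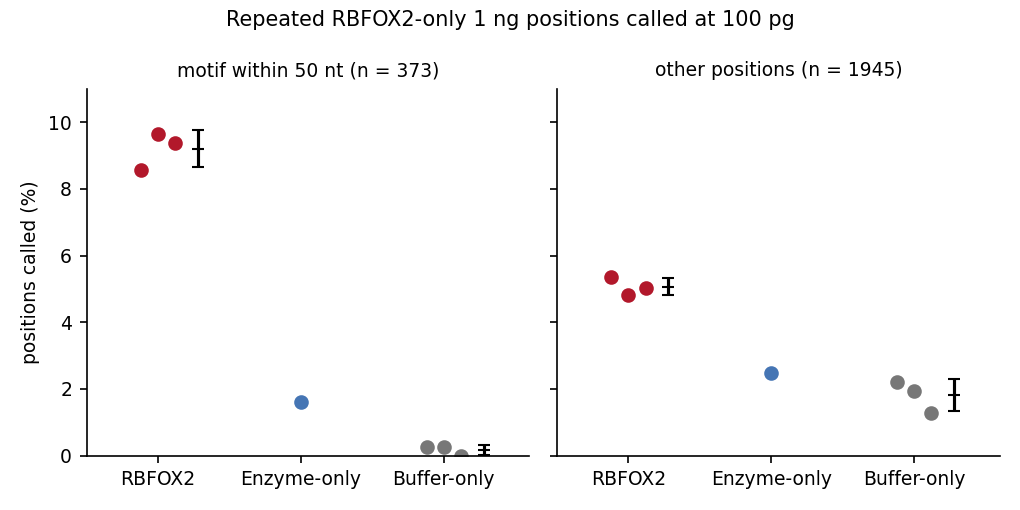
Percentage of repeated RBFOX2-only 1 ng positions that each 100 pg library called, for positions with the RBFOX2 motif within 50 nt (left) and the others (right). Points are libraries and bars are the mean and SD of 3, and the RBFOX2 libraries lie between 8.58% and 9.65% near the motif, above Enzyme-only at 1.61% and Buffer-only at 0 to 0.268%.

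The excess at 100 pg was larger next to the motif. Of the 373 positions near UGCAUG, the RBFOX2 libraries called 32, 36 and 35, the Enzyme-only library 6 and the Buffer-only libraries 1, 1 and 0. A count of 0 of 373 allows a share of up to 0.804%. Of the 1945 other positions, the RBFOX2 libraries called 104, 94 and 98, the Enzyme-only library 48 and the Buffer-only libraries 43, 38 and 25. The share near the motif minus the share elsewhere was 3.23, 4.82 and 4.34 points in RBFOX2, −0.859 points in Enzyme-only and −1.94, −1.69 and −1.29 points in Buffer-only. The means were 4.13 ± 0.814 points in RBFOX2 and −1.64 ± 0.331 points in Buffer-only (SD, n = 3 each), a difference of 5.77 points with p = 0.1 in the exact permutation test. Leaving out 1 ng RBFOX2 replicate 1, 2 or 3 gave 9.79, 5.64 and 7.61 points, and a motif window of 25 nt gave 5.05 points.

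Positions from all 3 RBFOX2 libraries of 1 ng were called at 100 pg most. The RBFOX2 libraries called 22, 25 and 21 of these 138, the Enzyme-only library 5, and the Buffer-only libraries 5, 4 and 1. The means were 16.4% ± 1.51 in RBFOX2 and 2.42% ± 1.51 in Buffer-only (SD, n = 3 each, exact permutation p = 0.1). For positions in exactly 2 libraries the means were 5.06% ± 0.217 in RBFOX2 and 1.5% ± 0.356 in Buffer-only (exact permutation p = 0.1). Clusters of edits called by FLARE at 100 pg covered 11.1% ± 0.612 of the repeated positions in RBFOX2 and 2.09% ± 0.515 in Buffer-only (SD, n = 3 each, exact permutation p = 0.1). In Enzyme-only they covered 3.93%. The libraries were unlike in clusters, with 13160 to 13614 in RBFOX2, 12837 in Enzyme-only and 8864 to 9912 in Buffer-only. These shares are not adjusted for that, and the share of all 1 ng positions under such clusters is not given.

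Most repeated positions were not seen again at the lower input. No 100 pg library called 1889 of the 2318 (81.5%). A single RBFOX2 library of 100 pg and no control called 256, 2 such libraries called 37 and all 3 called 4. The 297 positions in an RBFOX2 library and no control were near UGCAUG in 27.9% of cases, against 15% of the 1889 in no 100 pg library. The 86 positions in a 100 pg control alone were near it in 4.65% of cases, and 39.5% of them had no gene on their strand. Among the 297, the median edit fraction was 5.88% on 77 reads at 100 pg and 3.13% on 149 reads at 1 ng, and 228 had the higher fraction at 100 pg. These 297 were chosen by a call at 100 pg, where fewer reads make the lowest callable fraction higher. Whether editing differed between the inputs was not tested.

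The 4 positions called in all 3 RBFOX2 libraries of 100 pg and in no control are all in 3′UTRs and all in the triplet ACU. In HPRT1, a purine salvage enzyme, the position chrX:134500217 had 6 of 268, 10 of 290 and 5 of 282 reads edited at 1 ng and 7 of 265, 3 of 202 and 21 of 181 at 100 pg. In PLS3, an actin-bundling protein, chrX:115649518 had 3 of 102, 2 of 116 and 3 of 123 at 1 ng and 4 of 120, 4 of 87 and 10 of 123 at 100 pg. HPRT1 and PLS3 had UGCAUG at 32.5 and −9.5 nt, counted from the motif centre to the edit in the direction of the transcript. Another, in the tetraspanin gene TSPAN3, was in replicates 1 and 2 at 1 ng and had no UGCAUG within 200 nt.

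Positions in 2 of the 3 RBFOX2 libraries of 100 pg and no control included very deeply read 3′UTRs. In ATP6V1G1, a subunit of the proton pump of lysosomes, chr9:114597914 had 12 of 673, 19 of 718 and 9 of 733 reads edited at 1 ng and 11 of 750 and 21 of 835 in replicates 2 and 3 at 100 pg. PRDX3, a mitochondrial peroxidase, had 2 such positions 10 nt apart, and EIF4G2, a translation factor, also had 2. CALM2, which encodes calmodulin, had 1. Of these 5 positions, 1 in PRDX3 was called in all 3 libraries of 1 ng. None of the 5 had UGCAUG within 50 nt, but those in PRDX3 lay at 53.5 and 63.5 nt and that in CALM2 at −53.5 nt. The EIF4G2 positions lay at −1052.5 and −980.5 nt, and the SERF1B position shown above at −9.5 nt.

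Several of the deepest positions in all 3 libraries had no UGCAUG within 200 nt. The 4 genes with the most edited reads among them are shown for comparison, again as 30 nt of hg38 in the direction of the transcript, with the edited C as the only capital.
HSP90AA1, chr14:102081578-102081607, minus strand: auggcaugacaacuaCuuuaaggggaagau
ATP6V1G1, chr9:114597899-114597928, plus strand: gcuuuuuuguacagaCuuagaaauuaucua
SUMO2, chr17:75168086-75168115, minus strand: guauguuuugauugaCaucaaguggagacg
ARF1, chr1:228098157-228098186, plus strand: cagccugcggccaggCuuuuuauuuaaugu

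The HSP90AA1 window holds GCAUG after a G, which is the motif without its leading U. The study also counts GCAYG (Y is C or U) as an RBFOX2 motif, which GCAUG fits. Its secondary motifs include GUAUG, held by the SUMO2 window, and GCCUG, held by the ARF1 window. All 4 are in 3′UTRs and all 4 were called in at least 1 RBFOX2 library of 100 pg. HSP90AA1, a chaperone, had 46 edited reads of 2610 and SUMO2, a ubiquitin-like modifier, 35 of 2398. ARF1, a GTPase of the Golgi, had 20 of 1072, and its C follows a G. In the other 3 of these 4 windows A precedes the edited C.

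The highest pooled fractions among positions in all 3 libraries, with at least 20 reads in each, lay between 6.93% and 12.9% for 12 positions. The first was in ZNF770, a zinc finger gene, where chr15:34978512 had 4 of 25, 3 of 25 and 6 of 51 reads edited in replicates 1, 2 and 3. In CARNMT1, which methylates carnosine, chr9:74981101 had 8 of 52, 5 of 36 and 2 of 32, and it lies 3.5 nt 5′ of a motif centre. In VHL, a tumour suppressor that marks HIF proteins for degradation, chr3:10150799 had 2 of 54, 11 of 70 and 3 of 64, at 24.5 nt. Replicate 2 was the highest of the 3 in VHL and replicate 1 in CARNMT1, so the fractions of single libraries differ by several times at this depth. TOMM20, an import receptor of mitochondria, and ATP13A3, a P-type ATPase, each had a position at 12.5 nt, while those in RFK, which makes FMN, and C1D lay at −1841.5 and −550.5 nt.

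The repeated positions fell in 1327 genes, of which 921 had 1 position, 406 had 2 or more and 42 had 5 or more. That is 10.6% of the 12544 genes with any RBFOX2 site at 1 ng. YWHAE, which encodes a 14-3-3 adaptor protein, had the most with 12, all in the 3′UTR between chr17:1344580 and chr17:1344938. Coverage there was only 5 to 17 reads in each library, and none of the 12 was in all 3 libraries. The gene had 19, 25 and 13 called sites in the RBFOX2 libraries, 6 in Enzyme-only and 0, 4 and 3 in the Buffer-only libraries. In YWHAE 2 of the 12 positions were near UGCAUG, and 4 were called in a 100 pg RBFOX2 library.

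**Figure D5:**
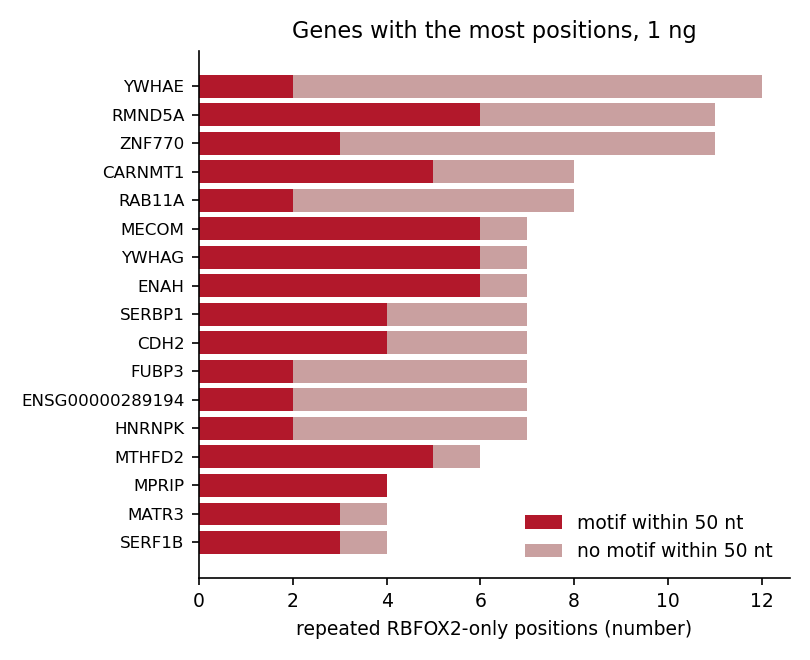
Number of repeated RBFOX2-only positions in the genes with the most such positions and in those with the most near the motif. Dark bars are positions with the RBFOX2 motif within 50 nt and pale bars the rest, and YWHAE has 12 positions with 2 near the motif while YWHAG, MECOM and ENAH have 7 with 6 near it.

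RMND5A, a subunit of the CTLH ubiquitin ligase, had 11 positions, of which 6 were near UGCAUG in the 3′UTR. All 6 lay 14.5 to 38.5 nt 3′ of a motif, on 2 copies. Called sites in the gene numbered 16, 24 and 13 in RBFOX2, 14 in Enzyme-only and 1, 0 and 0 in Buffer-only. MAEA, the partner of RMND5A in that ligase, had 3 positions with 1 near the motif. Its 3 RBFOX2 libraries had 5, 8 and 8 called sites, against 4 in Enzyme-only and 1, 0 and 0 in Buffer-only.

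YWHAG, another 14-3-3 gene, had 7 positions in its 3′UTR, 6 of them within 50 nt of UGCAUG on either side. It had 18, 14 and 15 called sites in RBFOX2, 1 in Enzyme-only and 1, 0 and 0 in Buffer-only. The position chr7:76327362, at −19.5 nt, had 2 of 34 and 5 of 62 reads edited in replicates 1 and 2 and was called in 2 RBFOX2 libraries of 100 pg. No RBFOX2 library of 100 pg called the YWHAG position chr7:76327293, at 49.5 nt, while the Enzyme-only library of that input had 8 of 28 reads edited there. ENAH, an actin regulator of the Ena/VASP family, also had 7 in its 3′UTR with 6 near a motif. ENAH had 48, 28 and 38 called sites in RBFOX2, 32 in Enzyme-only and 7, 8 and 6 in Buffer-only. The Enzyme-only count for ENAH lay within the range of its RBFOX2 counts. The same held for RMND5A and for RAB11A, which had 16 called sites in Enzyme-only against 22, 15 and 17 in RBFOX2. The ENAH positions chr1:225496711 and chr1:225496925 were in all 3 libraries, with 2 of 61, 3 of 97 and 5 of 99 reads and 3 of 73, 3 of 83 and 1 of 69 reads edited.

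CDH2, which encodes N-cadherin, had 7 positions in the 3′UTR and 3 of them were in all 3 libraries. The position chr18:27951344, 10.5 nt 3′ of UGCAUG, had 4 of 49, 4 of 78 and 4 of 69 reads edited. CDH2 had 12, 10 and 15 called sites in RBFOX2, 4 in Enzyme-only and 0, 3 and 2 in Buffer-only. Of its 7 positions, 4 were called again by an RBFOX2 library of 100 pg and none by a control of that input. CARNMT1 had 8 positions, 5 of them near a motif, and SERBP1, an mRNA-binding protein, had 7 with 4 near one. RAB11A, a GTPase of recycling endosomes, had 8 with 2 near a motif and 3 called in an RBFOX2 library of 100 pg. Of these 3 in RAB11A, chr15:65889362 was also called in the Enzyme-only library of 100 pg, with 5 of 51 reads edited. None of the CARNMT1 and SERBP1 positions was called in an RBFOX2 library of 100 pg.

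Groups of intronic positions were seen in MECOM, MTHFD2 and MPRIP. MECOM, a zinc finger transcription factor gene, had 7 intronic positions, and 6 were within 50 nt of UGCAUG. The position chr3:169561287 was in all 3 libraries, with 3 of 20, 5 of 15 and 2 of 24 reads edited at 45.5 nt, and 4 further positions lay within 40 nt of it. MTHFD2, an enzyme of mitochondrial folate metabolism, had 5 positions around the single intronic motif shown above, from −14.5 to 23.5 nt. MPRIP, which binds myosin phosphatase, had 4 intronic positions from 10.5 to 45.5 nt 3′ of 1 motif, on 9 to 22 reads a library. These introns were thinly covered, so 1 to 6 edited reads stand behind each library's value.

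Of the genes that the study shows for RBFOX2, APP and DEPDC1 held repeated positions and DCUN1D4, PKM and OGT held none. APP, the amyloid precursor protein gene, had 4 in its 3′UTR. The position chr21:25881403, 10.5 nt 5′ of UGCAUG, had 1 of 64 and 4 of 112 reads edited in replicates 1 and 3, and chr21:25881424, at −31.5 nt, had 3 of 65 and 4 of 95. APP had 28, 20 and 15 called sites in RBFOX2, 10 in Enzyme-only and 0, 2 and 1 in Buffer-only. None of its 4 positions was called at 100 pg. DEPDC1 had 5 positions in its 3′UTR and none near UGCAUG. The genes it shows for TDP-43, another RNA-binding protein, had 6 positions in all, with 3 in NUCKS1, 2 in XPO1 and 1 in TARDBP.

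Lists of genes with related functions were compared by how many of their RBFOX2 positions at 1 ng were repeated, against 2.28% of the 90712 positions in all genes. The lists lean to genes with many called sites, and nothing here is particular to a list. Membrane traffic genes had 44 of 750 positions repeated (5.87%), with 8 in RAB11A and 4 each in SEC23A and RAB21. Ubiquitin system genes had 33 of 696 (4.74%) and 11 of the 33 were near UGCAUG, 6 of them in RMND5A. HnRNP genes had 26 of 594 (4.38%), led by HNRNPK with 7 and SYNCRIP with 4, and only 2 of the 26 were near UGCAUG. SR protein and related genes had 27 of 637 (4.24%), 9 of them near the motif, with 5 positions in SRSF11 and 4 each in PNISR and BCLAF1.

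The remaining lists were closer to the value of all genes. Cytoskeleton and motor genes had 20 of 556 positions repeated (3.6%), with 5 in ACTR2 and 4 in the kinesin gene KIF5B. Regulators of splicing with tissue-limited roles had 13 of 375 (3.47%), 6 of them in QKI and none near UGCAUG. Translation factors had 15 of 529 (2.84%), chromatin genes 30 of 1067 (2.81%) and ribosomal protein genes 6 of 296 (2.03%). A list of noncoding RNA genes and transcribed pseudogenes had 6 of 402 (1.49%). Of these 6, the pseudogenes DUXAP9 and DUXAP10 held 2 each, and the lncRNAs NEAT1 and NORAD held 1 each. The 13 mitochondrial genes held 16 RBFOX2 positions and no repeated one, although 1 repeated position lay elsewhere on the mitochondrial chromosome. None of the 15 marker genes of blood, liver, muscle, fibroblast or nervous cells held an RBFOX2 site at 1 ng, although a file of called sites cannot show expression.

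The confident clusters of the authors, which come from the same libraries, overlapped with the set in part. At 1 ng 605 repeated positions (26.1%) lay in a confident RBFOX2 cluster, and 423 of the 776 clusters (54.5%) held one. Of those 605, 28.4% were near UGCAUG, against 11.7% of the 1713 outside. At 100 pg 52 repeated positions (2.24%) lay in a confident cluster, and 36 of the 214 clusters (16.8%) held one.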

How the data were processed

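The authors trimmed 100 nt reads with cutadapt, removed reads that matched repeats, aligned the rest with STAR to hg38 (version 2.4.0, per the submitters' processing notes), and called C-to-U sites per library with SAILOR. The deposited site files give a SAILOR score above 0.5 and the edited and total reads, with an edit fraction below 0.8. The authors ran FLARE to join edits into clusters (FDR 0.1, merged over 15 nt), and each deposited cluster carries a mean coverage signal, used here to see whether a control had reads. The deposited confident lists, which pool 3 replicates, served only for overlap. Groups and replicates were taken from the labels. The genome was hg38, as in the study, with Gencode 44, later than the annotation of the authors.

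Positions were matched by chromosome, position and strand. At all 2318 repeated positions the genome holds C on the called strand. Each was given 1 region, 3′UTR before others, and 46 repeated positions fit more than 1 gene. UGCAUG was searched on the same strand and its overlap with the reversed motif was allowed. The 43 repeated positions off the primary chromosomes have no annotation. The lowest coverage of a listed site was 5 reads, and 52.5 to 70.2% of sites per library rested on 1 edited read. Intervals are 95% Wilson intervals and floors are 3 counts of the total; both cover counting error only.

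Libraries were compared with exact two-sided permutation or sign-flip tests. The members and lists were chosen with earlier results of these data known. Named by rule are genes shown by the study, the 12 genes with the most positions, the 12 with the most near UGCAUG, up to 12 positions in 3 libraries with the highest fraction at 20 reads or more, up to 12 in the most 100 pg RBFOX2 libraries and no 100 pg control, and up to 4 genes per list. Not every one is printed, and a few items are not reported here. The genes of the 4 windows without UGCAUG, and those of the 11 windows with it, were taken by the numbers stated beside them after the data were seen. Alternatives were leaving out libraries, other controls, thresholds on coverage and score, windows and region order. The rule and tests were tested on simulated data. Tools were pysam 0.24.0, samtools 1.23.1, scipy 1.17.1, pandas 2.3.3, numpy 2.4.6 and matplotlib 3.10.9 under Python 3.11.15.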

Additional observations from a re-analysis of the deposited data

Results flagged for a closer look

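The Enzyme-only library of 100 pg enters no test, because it has no replicate. It called 2.33% of the repeated RBFOX2-only positions (54 of 2318, 95% Wilson interval 1.79 to 3.03%), above each of the Buffer-only libraries of that input, at 1.90%, 1.68% and 1.08%, and below the RBFOX2 libraries. The interval overlaps with those of the first and second Buffer-only library. Near UGCAUG it called 1.61% of 373 positions and elsewhere 2.47% of 1945.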

How the results depend on the processing

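The direction of every comparison between libraries held under each alternative run, where the smallest p is 0.1 for 3 against 3 libraries and 0.25 for 3 pairs. The number of repeated positions was 138 when all 3 RBFOX2 libraries were required and 676 with a SAILOR score of at least 0.9 in place of 2318, and leaving out 1 RBFOX2 or Buffer-only replicate of 1 ng gave 828 to 2421. It was 2489 without the Enzyme-only library as a control. The median edit fraction was 3.67% for positions in all 3 libraries, 3.57% at a coverage of at least 10 reads, 3.11% at 20 reads and 11.1% at a score of 0.9, against 3.99%. Leaving out 1 library gave 3.87 to 4.08%. The difference near UGCAUG was 25.3 points for positions in all 3 libraries and 15.2 points at a score of 0.9, against 11.7. The 3′UTR difference was 20.8 points at a score of 0.9, against 32.0. Counting a 100 pg site within 10 nt gave a difference of 6.66 points in place of 4.18 between RBFOX2 and Buffer-only, and 8.79 in place of 5.77 in the contrast near UGCAUG. Positions in all 3 libraries gave 14 and 11.8 points for these. The share of 100 pg sites differed by 0.0675 points for positions in all 3 libraries, 0.119 at a score of 0.9 and 0.476 at 20 reads, against 0.314, and the cause was not tested. Matching without strand changed no position and could not, because a coordinate holds C on only 1 of its strands.

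After the data were seen, 2 alternatives were added. With the 4 controls of 100 pg used as controls too, 2186 positions were left, of which 16.7% were near UGCAUG. On the primary chromosomes alone 2275 were left.

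Whether same-numbered RBFOX2 and Buffer-only libraries of 100 pg shared a slide or batch is not stated. The correlations of their deviations were −0.005, −0.027 and −0.013 over 2057 positions, which cannot show that they did not. With the replicate number as a block the difference stayed at 4.18 points in the share called, 0.314 in the share of sites and 5.77 in the contrast near UGCAUG, each with p = 0.25 in the exact sign-flip test, the smallest that 3 pairs allow. Depth limits the precision, since the median repeated position had 4 edited reads at 1 ng.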

Other observations

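Of other motifs, 3 were searched beside the repeated positions, and their shares are given with no test. GCACG, a secondary RBFOX motif, was within 50 nt of 1.94% of them, against 2.59% of RBFOX2-only positions of a single library, and of 5.07% of the 138 positions in all 3 libraries. UGUGUG, the motif of TDP-43, was within 50 nt of 4.62%, against 4.12%. CAUGCA, which is UGCAUG read on the opposite strand and can overlap with it, was within 50 nt of 4.66%, against 2.73%, and of 8.70% of the positions in all 3 libraries.

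Repeated positions opposite to a gene or without one differed in base context. Of the 2145 positions after A or U, 197 had no gene on their strand, and of the 173 after C or G, 50 had none. Of the 1718 positions that were repeated in RBFOX2 libraries and also called in a control, 63.5% had no gene on their strand and 11.1% were in a 3′UTR, while 171 of them were in the Enzyme-only library and no Buffer-only library. These 171 were in 3′UTRs in 45.6% of cases and near UGCAUG in 7.02%.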
